A study of Rattus norvegicus with 20 samples.

Results

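Maternal separation (MatSep) in neonates was examined by comparing gene expression in isolated renal vasculature of MatSep rats and control rats at postnatal day 10 (P10). The 10 P10 arrays were chosen by their labels from the 20 arrays of the series, and all 18511 of the 36685 transcripts that carry 1 gene symbol were tested. The MatSep group held 5 male Wistar Kyoto rats, samples 16, 17, 22, 23 and 24 in the labels and rats 1 to 5 below. The control group held 5 male Wistar Kyoto rats without separation, samples 14, 15, 19, 20 and 21, likewise called rats 1 to 5. RNA of each rat was hybridized to 1 RaGene2.0_st array, and values are the log2 of the deposited normalized intensity. MatSep pups were removed from the dam for some hours each day from shortly after birth, and at P10 this schedule was still running. The methods describe the controls both as non-handled litters and as littermates of the MatSep rats. The methods also state that groups were drawn from several litters. The litter of each rat is not given in the labels, so the rats were treated as independent, and the p-values would be too small if rats of a group shared a litter. Vessels were obtained by grating the decapsulated kidney on a sieve, and what stayed on the sieve was the sample.

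Repeated separation of rat pups from the dam is a model of early life stress, and adult offspring are known for exaggerated vascular responses to angiotensin II. The wall of a renal artery holds endothelium, smooth muscle, and an adventitia of fibroblasts, matrix, resident macrophages and nerves, with fat cells around the vessels at the hilum. In the rat, nephrons and their vessels are still forming after birth, and brown fat is prominent in pups.

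The sample numbers of the P10 arrays form separate runs, 14 to 17 with 2 MatSep and 2 control rats, and 19 to 24 with 3 of each. What the runs stand for is not given in the labels. With MatSep in the model, 1620 transcripts were higher and 1919 lower in the later than in the earlier run at an adjusted p under 0.05 (limma, Benjamini-Hochberg). The effect of MatSep itself differed between the runs for 2 transcripts (0.0108% of those tested), Alb and Ahsg, which are products of the liver and were chosen here after their values were seen. Alb, the gene of serum albumin, had log2 intensities of 9.40, 9.49, 5.57, 5.98 and 5.77 in MatSep rats 1 to 5, against 5.87, 5.75, 7.74, 8.08 and 8.67 in control rats 1 to 5. The 5 high arrays were thus samples 16, 17, 19, 20 and 21, which follow each other in sample number and belong to both groups. Whether any sample was handled or labelled out of order was not tested, and the groups below are those of the labels. Ahsg, the gene of the serum protein fetuin-A, was at 7.73 and 7.75 in MatSep rats 1 and 2 and at 5.30 to 5.93 in the other MatSep rats, against 5.78 and 6.00 in control rats 2 and 1 and 6.50 to 7.02 in the other controls. The MatSep minus control difference of Alb was 3.64 in the run 14 to 17 and -2.39 in the run 19 to 24 (limma, adjusted p of their difference = 0.000129), and that of Ahsg was 1.85 and -1.17 (adjusted p = 0.00857). At P180 the 10 arrays lay between 5.25 and 6.17 for Alb. The part of this pattern in the other results was not tested.

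**Figure D1:**
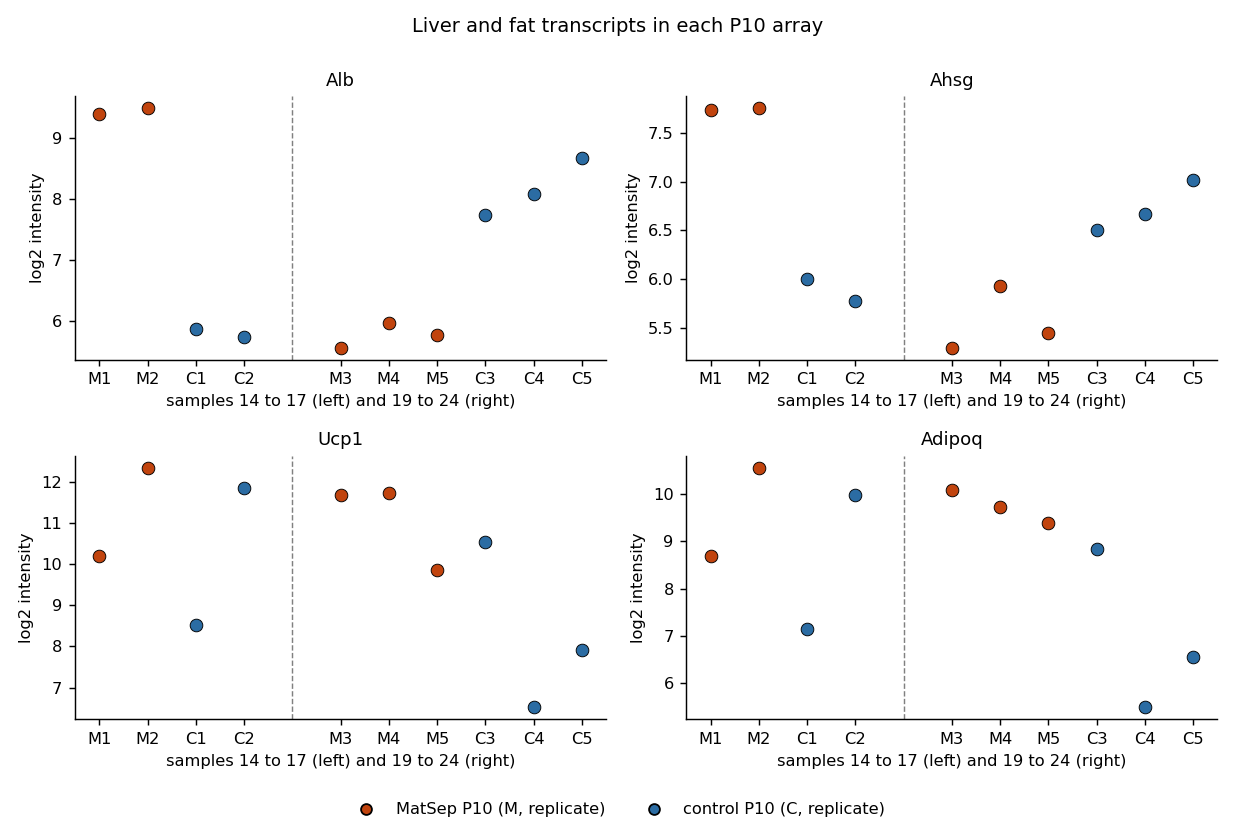
Log2 intensity (y axis) of Alb, Ahsg, Ucp1 and Adipoq in each P10 array (x axis, MatSep rats left of control rats within each run), with a dashed line between the runs of sample numbers. Alb and Ahsg were high in MatSep rats of the run 14 to 17 and in control rats of the run 19 to 24, while the fat cell genes Ucp1 and Adipoq were high in control rat 2 and in most MatSep rats.

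The first components of a principal component analysis of the 10 arrays held 35.1% and 30.4% of the variance. The preparation carried transcripts of vessels and of the surrounding nephron. None of 21 measured endothelial markers, 15 smooth muscle contractile genes and 15 proximal tubule markers had a mean log2 intensity under 5. Pecam1, Kdr and Acta2, which lack a transcript with 1 symbol, were not analysed here. In such bulk samples, fewer cells of a type and less RNA per cell cannot be told apart.

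Expression of 3 transcripts was higher in MatSep neonates at an adjusted p under 0.05 and of 0 lower (limma), which is 0.0162% of the 18511 tested. At an unadjusted p under 0.05, 944 transcripts (5.10%) were higher and 846 (4.57%) lower. Over all transcripts the median log2 difference, MatSep minus control, was -0.01. Here and below, SE and p come from a spread shared over all 20 arrays, P180 rats included, unless another setting is named. For single genes that spread can be wider or narrower than the spread of the P10 rats. Tests of a difference between the runs used the P10 arrays alone. Counts within lists were not made with the P10 arrays alone.

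Sfrp4, a secreted frizzled-related protein that binds Wnt ligands, had log2 intensities of 6.85, 8.19, 7.21, 6.76 and 6.73 in MatSep rats, against 5.41, 6.07, 6.05, 5.48 and 4.97 in control rats. Every MatSep rat was above every control rat, with MatSep rat 2 the highest and control rat 5 the lowest. Its log2 difference was 1.55 (SE 0.24, adjusted p = 0.0218, limma), with 1.78 in the run 14 to 17 and 1.40 in the run 19 to 24.

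Ccr1, a receptor of inflammatory chemokines on monocytes and macrophages, was at 5.42, 5.63, 5.52, 5.56 and 5.70 in MatSep rats, against 5.11, 5.14, 5.10, 5.12 and 5.03 in control rats. The groups did not overlap and the control rats lay close together, so a small log2 difference of 0.47 (SE 0.07) passed the test (limma, adjusted p = 0.0218). Groups that did not overlap were found for 134 transcripts higher in MatSep (0.724%) and 175 lower (0.945%), together 1.67%. Tnxa-ps1, named in the annotation as a pseudogene of tenascin X, a matrix glycoprotein, had values of 7.06, 7.96, 7.82, 7.37 and 7.54 in MatSep rats, against 6.16, 7.01, 6.74, 6.15 and 5.62 in control rats. Its groups were also apart, with only 0.05 between MatSep rat 1 and control rat 2, and its log2 difference was 1.21 (SE 0.20, limma, adjusted p = 0.043). Probes of a pseudogene may also bind RNA of the parent gene, and that could not be separated here.

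These calls depended on single rats. Sfrp4 did not pass without control rat 1, 4 or 5 or MatSep rat 3 (limma, adjusted p = 0.109, 0.103, 0.0981 and 0.0935). Ccr1 passed without control rat 2 or 3 or MatSep rat 1 and did not pass without any other rat, with adjusted p between 0.00744 and 0.109 over the 10 omissions. Tnxa-ps1 passed in 3 of those 10 omissions, with adjusted p between 0.00387 and 0.223, and not without control rat 1, 4 or 5 or MatSep rat 2, 3, 4 or 5. With the P10 arrays fitted alone, the adjusted p was 0.31 for Sfrp4, 0.151 for Ccr1 and 0.318 for Tnxa-ps1, and with a block for the runs Tnxa-ps1 alone missed the threshold (0.0802). The 3 log2 differences were above 0 in every one of the 28 alternatives. As every MatSep rat was above every control rat for these genes, leaving out a rat or fitting 1 run could not have turned the sign.

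The sequence around the start was looked for in RefSeq's promoters for 4 genes whose groups did not overlap, Sfrp4, Ccr1, Tnxa-ps1 and Mfap5, which is described next. The 2 that matched, Ccr1 and Mfap5, are shown. Both stretches run from 250 bases before to 50 bases after the RefSeq start in the rat build GRCr8, at chr8:132439217-132439516 on the minus strand for Ccr1 and at chr4:157399669-157399968 on the plus strand for Mfap5. Capitals mark matches to the E box CANNTG, which reads the same on both strands and is bound by basic helix-loop-helix factors.
Ccr1: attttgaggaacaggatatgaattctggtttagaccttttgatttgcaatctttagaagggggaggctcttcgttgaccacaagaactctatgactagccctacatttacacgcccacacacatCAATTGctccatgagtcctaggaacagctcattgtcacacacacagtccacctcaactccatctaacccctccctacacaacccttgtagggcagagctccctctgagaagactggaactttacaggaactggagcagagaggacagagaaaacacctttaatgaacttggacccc
Mfap5: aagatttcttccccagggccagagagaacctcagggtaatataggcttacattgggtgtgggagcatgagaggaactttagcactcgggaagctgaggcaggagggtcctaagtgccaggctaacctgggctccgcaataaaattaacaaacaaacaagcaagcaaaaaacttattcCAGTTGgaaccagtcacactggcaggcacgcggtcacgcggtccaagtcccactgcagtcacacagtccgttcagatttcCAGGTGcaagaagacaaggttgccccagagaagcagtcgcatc
The match in Ccr1 begins 126 bases before the start, and those in Mfap5 73 bases before and 8 bases after it. An E box was present in 72.1% of 33469 rat promoters of this length, so the matches set neither gene apart. The letters TATAAA (14.2% of promoters), AGAACA, a motif of steroid receptors (20.7%), and TGACTCA, a motif of AP-1 (4.6%), searched on both strands, were in neither stretch.

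**Figure D2:**
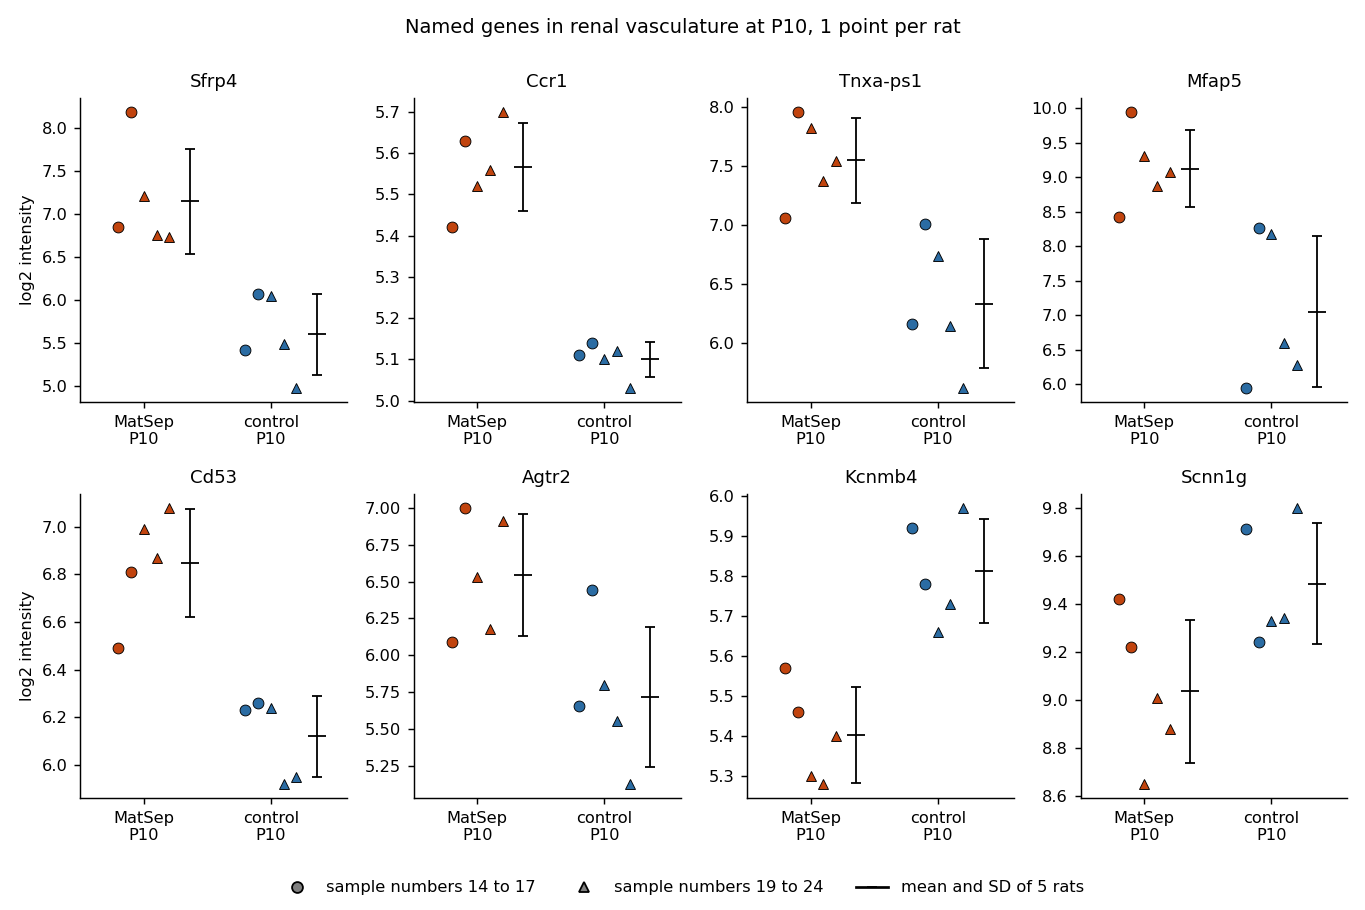
Log2 intensity (y axis) of 8 named genes in each rat (points, MatSep left and control right), with the mean and SD of each group beside the points. MatSep and control points are apart for Sfrp4, Ccr1, Tnxa-ps1, Mfap5, Cd53 and Kcnmb4 and overlap for Agtr2 and Scnn1g.

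Genes of the extracellular matrix stood among the differences with the smallest p. None but Tnxa-ps1 passed in the fit of 1 mean per group to all 20 arrays, without weights, blocks or further centring. Mfap5, a microfibril-associated glycoprotein of elastic tissue, was at 8.43, 9.95, 9.31, 8.87 and 9.07 in MatSep rats, against 5.94, 8.27, 8.17, 6.60 and 6.27 in control rats. MatSep rat 1 lay just above control rats 2 and 3, and the other control rats were far below. The log2 difference was 2.08 (SE 0.37, limma, adjusted p = 0.0812), and Mfap5 passed without control rat 2 (adjusted p = 0.00387), control rat 3 (0.0197) or MatSep rat 1 (0.0168), and with median centring (0.0385) or array weights (0.00676). Mfap5 missed with the P10 arrays alone (limma, adjusted p = 0.331), a block for the runs (0.0802) and every other rat left out (0.142 to 0.325). Col6a6, a chain of the microfibrillar collagen VI, had 7.37, 8.17, 8.13, 7.74 and 8.24 in MatSep rats, against 6.70, 7.38, 7.46, 6.86 and 7.05 in control rats (log2 difference 0.84, SE 0.15, adjusted p = 0.0897). Its groups overlapped only because MatSep rat 1 lay among the upper controls, and Mfap5 and Col6a6 shared their lowest MatSep rat. Col6a6 passed under the same alternatives, without control rat 2 (limma, adjusted p = 0.0133), control rat 3 (0.0197) or MatSep rat 1 (0.00933), and with median centring (0.0267) or array weights (0.0107). Col6a6 also missed with the P10 arrays alone (limma, adjusted p = 0.331), a block for the runs (0.0802) and every other rat left out (0.142 to 0.325). Both genes passed with a block for replicate numbers (limma, adjusted p = 0.00135 each), a pairing that the labels do not state. Dpt, dermatopontin, which binds decorin and collagen fibrils, was at 10.47 to 11.18 in MatSep rats (median 10.91), against 9.34 to 10.54 in control rats (median 10.03).

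Of 32 measured collagen chains, 15 were higher and 1 lower in MatSep at an unadjusted p under 0.05 (10 to 15 higher with single rats left out), with a median log2 difference of 0.22 against -0.01 over all transcripts. Those with the smallest p were chains of fibril-associated and minor collagens, with Col14a1, which binds to fibrils, at 1.03 (SE 0.24) and Col5a3, a chain that joins the type I fibrils, at 0.77 (SE 0.20). Col5a1, which nucleates those fibrils, has separate transcripts on the array, with differences of 0.43 (SE 0.18) for the brighter and 0.55 (SE 0.12) for the dimmer. Of 20 elastic fibre and microfibril genes, 7 were higher and 0 lower (median 0.31; 11 without control rat 3 and 4 without control rat 5), among them Fbn1, the main microfibril protein, at 0.51 (SE 0.17) and Loxl1, which crosslinks elastin, at 0.60 (SE 0.20). Of 13 small leucine-rich proteoglycans, which regulate the width of collagen fibrils, 7 were higher and 0 lower (median 0.31), and the largest difference was that of lumican, Lum, at 1.2 (SE 0.36). The proteoglycan Prelp (0.99, SE 0.26) and asporin, Aspn (0.83, SE 0.24), were, like Col14a1, named for their small p within their lists, and all 3 missed the adjusted threshold.

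Fibroblast markers, which share 3 members with the collagen list, 2 with the elastic fibre list and 2 with the proteoglycans, were also higher more often than transcripts at large. Of 19 measured, 13 were higher and 0 lower at an unadjusted p under 0.05, with a median of 0.49 (0.38 in the run 14 to 17 and 0.59 in the run 19 to 24). With single rats left out, 10 to 15 of the 19 were higher. The summed intensity of the list was 36494 to 49564 in MatSep rats and 23011 to 37998 in control rats, and the only marker with a mean log2 intensity under 5 was Fap. The mean log2 level of the list was 9.67, 10.12, 10.08, 9.90 and 9.92 in MatSep rats, against 9.03, 9.77, 9.63, 9.27 and 8.91 in control rats. All but MatSep rat 1 were above the highest control, rat 2. Twist2, a basic helix-loop-helix factor of mesenchymal cells, had 6.37, 7.73, 7.04, 7.29 and 7.50 in MatSep rats, against 5.78, 7.29, 6.09, 5.65 and 5.31 in control rats (log2 difference 1.16, SE 0.27, limma, adjusted p = 0.155). Control rat 2 was far above the other controls and above 3 MatSep rats. The part of fibroblast content in the differences of matrix genes was not tested.

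Secreted regulators of growth factor pathways included some of the larger differences. Of 20 secreted Wnt modulators, 4 were higher, Sfrp4 among them, and 1 was lower at an unadjusted p under 0.05, with a median of 0.04, so the list as a whole lay near the background. Rspo3, an R-spondin that strengthens Wnt signals, was at 6.97, 8.05, 7.51, 6.97 and 7.32 in MatSep rats, against 6.42, 7.02, 6.73, 6.18 and 6.30 in control rats (log2 difference 0.83, SE 0.22, limma, adjusted p = 0.202). Only control rat 2 reached the lowest MatSep rats. Chrdl1, an antagonist of bone morphogenetic proteins, was higher in every MatSep rat (6.42 to 7.46) than in any control rat (5.78 to 6.42), with MatSep rat 1 and control rat 2 equal to the second decimal, and a log2 difference of 0.84 (SE 0.17, adjusted p = 0.132). Of 30 TGF-beta family genes, 4 were higher (2 to 7 with single rats left out) and 1 lower (median 0.07), and its ligand Tgfb3 differed by 0.59 (SE 0.17).

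Fat cell genes had the highest median of the 41 lists, and also the widest spread between rats. Of 23 white adipocyte genes, 22 were higher and 0 lower in MatSep at an unadjusted p under 0.05, with a median of 0.76, and 0 passed the adjusted threshold. The count was 23 without control rat 2, and 16, 14 and 15 without control rats 1, 4 and 5, 17 and 18 without MatSep rats 3 and 4, and lowest at 13 without MatSep rat 2. Adipoq, the gene of the hormone adiponectin, was at 8.68, 10.54, 10.08, 9.71 and 9.38 in MatSep rats, against 7.15, 9.98, 8.83, 5.50 and 6.55 in control rats. Control rat 2 was above 3 MatSep rats, whereas control rats 1, 4 and 5 were below all others (log2 difference 2.08, SE 0.58, limma, adjusted p = 0.233). The SD of Adipoq at P10 was 0.71 in MatSep and 1.79 in control rats, whereas the SE used the spread shared over all 20 arrays. Scd, which desaturates fatty acids, differed by 2.08 as well (SE 0.59), and Lep, the gene of leptin, by 0.84 (SE 0.18). Hcar1, a lactate receptor of fat cells, lay among the 20 smallest p of higher transcripts with a difference of 0.50 (SE 0.11, adjusted p = 0.143).

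Of 12 brown fat thermogenic genes, 4 were higher (3 to 7 with single rats left out) and 1 lower, with a median of 0.33. Ucp1, the uncoupling protein of brown fat, had log2 intensities of 10.21, 12.35, 11.68, 11.73 and 9.86 in MatSep rats, against 8.53, 11.85, 10.54, 6.52 and 7.91 in control rats (log2 difference 2.10, SE 0.74, limma, adjusted p = 0.34). Control rat 2 was the second highest of all 10 rats, so the groups overlapped widely. Cidea, a lipid droplet protein, differed by 1.66 (SE 0.56) and Ebf2, a factor of brown fat identity, by 1.41 (SE 0.43).

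The mean log2 level of the white adipocyte list was 7.89, 9.17, 8.94, 8.80 and 8.17 in MatSep rats, against 7.11, 8.79, 8.10, 6.72 and 7.03 in control rats. Its summed intensity was 9281 to 22982 in MatSep rats and 4226 to 18213 in control rats, and no marker of the list had a mean under 5. MatSep rats 1 and 5, with 7.89 and 8.17, were below control rat 2 with 8.79 on this list, while their Sfrp4, at 6.85 and 6.73, was above that of control rat 2 at 6.07. Within each group, rats 2 and 3 had the highest values both of this list and of Sfrp4. The part of fat tissue in the difference of Sfrp4 and in the other differences was not tested.

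**Figure D3:**
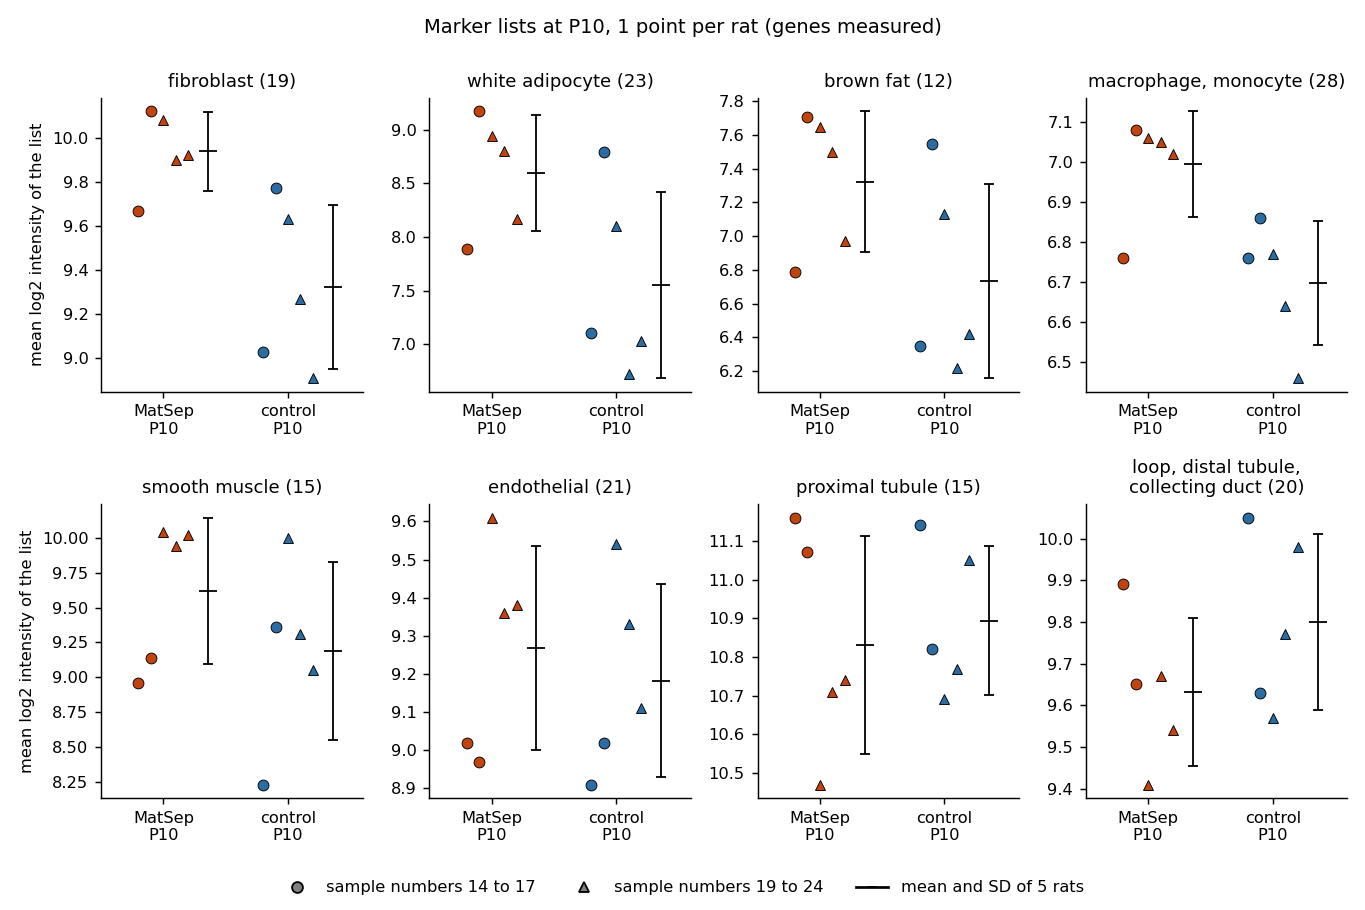
Mean log2 intensity (y axis) of 8 marker lists in each rat (circles for samples 14 to 17, triangles for samples 19 to 24, MatSep left and control right), with the mean and SD of 5 rats beside them. In the white adipocyte list, control rat 2 at 8.79 lies among MatSep rats at 7.89 to 9.17, and the other controls lie at 6.72 to 8.10.

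Macrophage and monocyte markers were higher more often than transcripts at large. Of 28 measured, 16 were higher and 0 lower at an unadjusted p under 0.05 (median 0.30), 13 to 17 with single rats left out, and Ccr1 passed the adjusted test. Cd53, a tetraspanin of leukocytes, was at 6.49, 6.81, 6.99, 6.87 and 7.08 in MatSep rats, against 6.23, 6.26, 6.24, 5.92 and 5.95 in control rats, with no overlap (log2 difference 0.73, SE 0.14, limma, adjusted p = 0.119). Fcer1g, the signalling chain of Fc receptors, differed by 0.60 (SE 0.14), and Nfam1, an activating receptor of myeloid and B cells, by 0.43 (SE 0.09) without overlap. The mean log2 level of the list was 6.76, 7.08, 7.06, 7.05 and 7.02 in MatSep rats, against 6.76, 6.86, 6.77, 6.64 and 6.46 in control rats. MatSep rat 1 was thus at the level of the controls and the 4 others were above them all. The summed intensity was 4536 to 5536 in MatSep rats and 3673 to 4756 in control rats. The median was 0.11 in the run 14 to 17 and 0.44 in the run 19 to 24, and the difference between the runs was not tested for the list.

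Other leukocyte lists stayed near the background. Of 13 T cell markers, 1 was higher and 2 were lower (median -0.04), with Cd4, which rat macrophages also carry, at 0.61 (SE 0.15) and the T cell receptor kinase Zap70 at -0.44 (SE 0.12). Of 8 B cell markers, 0 were higher and 1 was lower (median -0.04), and of 11 mast cell markers, 2 were higher and 1 lower (median 0.07). Of 10 neutrophil markers only Mpo, myeloperoxidase, was higher at an unadjusted p under 0.05, and 5 of the 10 had a mean log2 intensity under 5. Mpo was at 6.65, 8.49, 8.47, 8.0 and 6.83 in MatSep rats, against 5.98, 8.19, 7.49, 5.51 and 5.71 in control rats, with the same order of high and low controls as Ucp1. Camp, a peptide of neutrophil granules, was dim at 4.52 to 4.68 in MatSep rats and 4.58 to 4.85 in control rats. The neutrophil elastase gene Elane was likewise at 4.46 to 4.74 in MatSep rats and 4.62 to 4.88 in control rats.

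Of 22 complement genes, 9 were higher and 0 lower (median 0.12), led by C7, a component of the terminal complex, at 0.90 (SE 0.21) and C1s, a protease of the classical pathway, at 0.82 (SE 0.21). Of 53 chemokines and their receptors, 7 were higher (4 to 9 with single rats left out), Ccr1 among them, and 1 was lower (median 0.02). Ccl21, which guides cells along lymphatic vessels, was at 8.24 to 9.32 in MatSep rats (median 8.93), against 7.14 to 8.32 in control rats (median 7.99), with a log2 difference of 0.99 (SE 0.26). Ccl2, which attracts monocytes, differed by 0.38 (SE 0.15). Of 21 interferon-stimulated genes, 3 were higher (2 to 6 with single rats left out) and 0 lower (median 0.08), and of 15 genes of antigen presentation 1 was higher and 1 lower, the MHC class I light chain B2m at 0.42 (SE 0.10) and the MHC class II activator Ciita at -0.22 (SE 0.09).

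Markers of the cells of the vessel wall were mostly within the spread between rats. The endothelial marker Pecam1, which the paper found reduced by qPCR in isolated vasculature of MatSep neonates, was not among those measured here. Of 21 endothelial markers, 0 were higher and 0 lower at an unadjusted p under 0.05 (median 0.08; 1 higher with a block for the runs and 0 to 2 with single rats left out), and the member with the smallest p, Ehd3, a marker of glomerular capillaries in the mouse, differed by 0.19 (SE 0.13). Of 30 sprouting and VEGF pathway genes, 1 was higher, Nrp2, a co-receptor of semaphorins and VEGF-C, at 0.40 (SE 0.18), and 0 were lower, against 3 higher with a block for the runs and 0 to 2 with single rats left out. Of 7 lymphatic endothelial markers 2 were higher, Ccl21 and the multimerin Mmrn1 at 0.25 (SE 0.11), with 3 under a block for the runs and 1 (without control rat 5 or MatSep rat 5) to 4 (without control rat 3) with single rats left out. Smooth muscle contractile genes had a median of 0.49, but only 2 of 15 were higher at an unadjusted p under 0.05, and the rats varied widely. This count was 8 with a block for the runs, 9 without control rat 3 or MatSep rat 1, 6 without control rat 2 or MatSep rat 2, and 1 with each of the other 6 rats left out in turn. Actg2, a smooth muscle actin, was at 9.45, 10.32, 10.70, 10.81 and 10.70 in MatSep rats, against 7.48, 10.30, 10.51, 8.65 and 8.87 in control rats (log2 difference 1.24, SE 0.42, limma, adjusted p = 0.33). Control rats 2 and 3 lay among the MatSep rats, and control rat 1 was lowest. The summed intensity of the smooth muscle list was 12543 to 23965 in MatSep rats and 8019 to 22385 in control rats. Of 12 pericyte and mesangial markers, 2 were higher, the potassium channel subunits Abcc9 at 0.57 (SE 0.21) and Kcnj8 at 0.33 (SE 0.15).

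Among genes of the renin-angiotensin system, Agtr2, the type 2 angiotensin receptor abundant in developing mesenchyme, had the smallest p. Its log2 intensity was 6.09, 7.0, 6.53, 6.18 and 6.91 in MatSep rats, against 5.66, 6.44, 5.80, 5.56 and 5.13 in control rats. Control rat 2 was above 2 MatSep rats, and all MatSep rats were above the other controls (log2 difference 0.82, SE 0.19, limma, adjusted p = 0.153). Agtr1a, the main receptor of angiotensin II in renal vessels, was at 9.84 to 10.13 in MatSep rats and 9.60 to 9.90 in control rats (difference 0.21, SE 0.08). Agtr1b differed by 0.31 (SE 0.16), the converting enzyme gene Ace by 0.28 (SE 0.22), the angiotensin-(1-7) receptor Mas1 by 0.12 (SE 0.22), and Agt, the precursor, by -0.14 (SE 0.16). Of 26 measured genes of the system as the study lists it, 4 were higher (2 to 7 with single rats left out, 6 with a block for the runs) and 1 lower (2 with the block) at an unadjusted p under 0.05 (median 0.04). The 4 include Cpa3, a carboxypeptidase that cleaves angiotensin I and is a product of mast cells, at 0.44 (SE 0.13).

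The study sorted other genes into angiogenic and inflammatory lists by their change in these samples, so their direction is no independent evidence. Of 34 angiogenic genes listed as higher, 21 were higher and 0 lower at an unadjusted p under 0.05 (median 0.33), and of 45 inflammatory genes listed as higher, 29 were higher and 0 lower (median 0.34). Of 9 genes listed as lower, 5 were lower (3 to 4 with single rats left out), among them Pdgfa, a growth factor for mesenchymal cells, at -0.28 (SE 0.10) and the stress kinase Mapk13 at -0.32 (SE 0.11). Within these lists, Xdh, xanthine oxidoreductase, had groups that did not overlap, with 5.49 to 6.03 in MatSep rats and 5.24 to 5.47 in control rats (difference 0.33, SE 0.08). A further list held genes that were also measured by qPCR. Those with a transcript here are tabled in the paper's comparison of array and qPCR results, with their fold changes on these same arrays. Their direction here is thus no independent evidence either, and how they were chosen is not stated. Of the 7 with a transcript here, 6 were higher and 0 lower at an unadjusted p under 0.05 (median 0.64). Fgl2, a product of macrophages and T cells, was the only one of them not described above with a difference over 0.5, at 0.64 (SE 0.21).

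**Figure D4:**
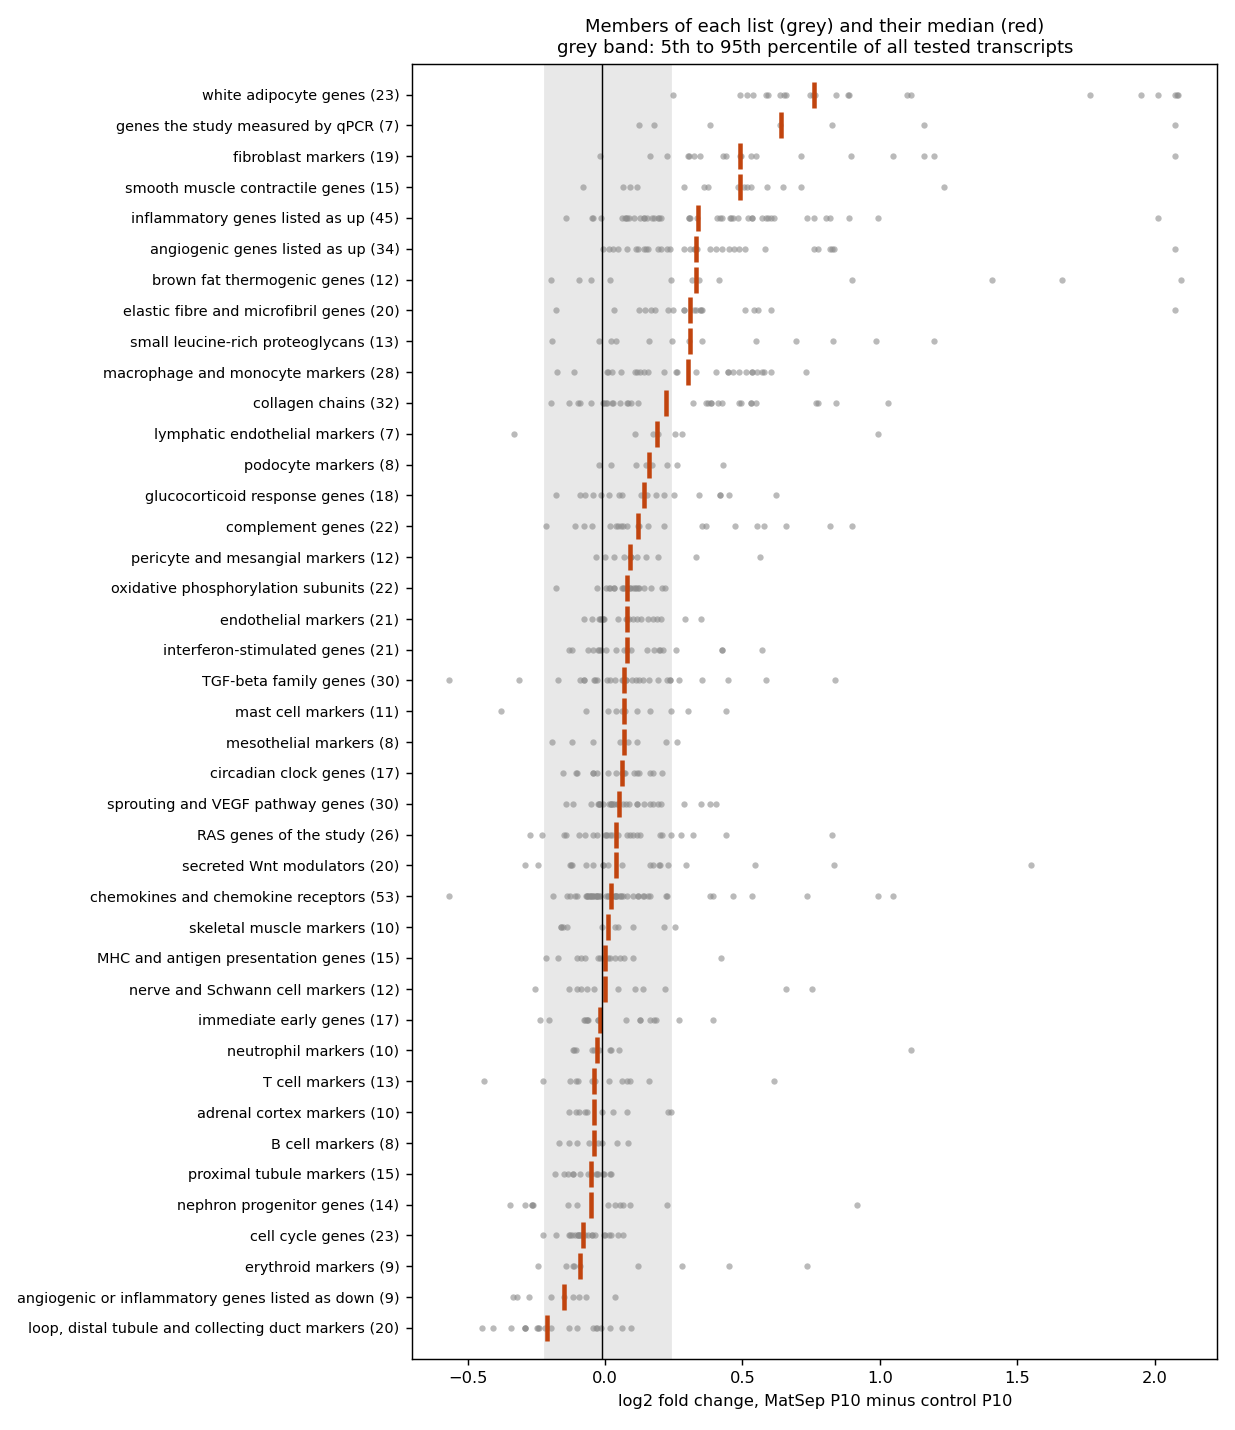
Median log2 difference, MatSep minus control (x axis), of the measured members of 41 gene lists (y axis, red bars), with each member as a grey point, the 5th to 95th percentile of all tested transcripts (-0.22 to 0.24) as a grey band and their median as a black line. White adipocyte genes at 0.76, fibroblast markers at 0.49 and smooth muscle contractile genes at 0.49 lie farthest right among the cell type lists, and markers of loop, distal tubule and collecting duct farthest left at -0.21.

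Lower values in MatSep neonates included channel subunits and genes of epithelia, and none passed the adjusted test. Kcnmb4, an accessory subunit of the calcium-activated potassium channel, had the smallest p. It was at 5.57, 5.46, 5.30, 5.28 and 5.40 in MatSep rats, against 5.92, 5.78, 5.66, 5.73 and 5.97 in control rats, without overlap (log2 difference -0.41, SE 0.08, limma, adjusted p = 0.119). The glycosyltransferase B4galnt4 (-0.33, SE 0.07) and the voltage-gated potassium channel Kcnh6 (-0.43, SE 0.10) also had groups apart. Tspan8, a tetraspanin of epithelia, was at 9.24 to 9.75 in MatSep rats and 9.71 to 10.02 in control rats (-0.46, SE 0.10), and Rap1gap, which switches off the GTPase Rap1, at 6.92 to 7.64 in MatSep rats and 7.57 to 8.14 in control rats (-0.65, SE 0.15). The centrosomal gene Lrrcc1 differed by -0.47 (SE 0.10). No transcript was lower by more than 1 on the log2 scale, while 28 (0.151%) were higher by more than that.

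Of 20 markers of loop, distal tubule and collecting duct, 17 had a difference below 0 and 4 of these were lower at an unadjusted p under 0.05 (median -0.21). This count was 8 with a block for the runs. With single rats left out it was 8 without MatSep rat 1, 7 and 6 without control rats 3 and 2, 2 without control rat 4, and 1 without control rat 1 or 5 or MatSep rat 3 or 5. Scnn1g, the gamma chain of the amiloride-sensitive sodium channel ENaC, was at 9.42, 9.22, 8.65, 9.01 and 8.88 in MatSep rats, against 9.71, 9.24, 9.33, 9.34 and 9.80 in control rats. MatSep rat 1 lay among the controls, MatSep rat 2 just under the lowest of them and the other MatSep rats farther below (log2 difference -0.45, SE 0.15, limma, adjusted p = 0.318). Slc12a1, the sodium-potassium-chloride cotransporter of the thick ascending limb, differed by -0.25 (SE 0.11). Proximal tubule markers had a median of -0.05, with 0 of 15 past an unadjusted p under 0.05. Their differences were above 0 for 14 of 15 in the run 14 to 17 (median 0.10) and for 0 of 15 in the run 19 to 24 (median -0.19). The pooled value near 0 thus joined runs of opposite sign, and a difference between the runs passed for none of these markers.

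Of 14 nephron progenitor genes, 2 were higher and 3 lower (0 to 5 lower with single rats left out and 5 with a block for the runs, median -0.05). Foxd1, a factor of stromal progenitors, was at 5.12 to 5.36 in MatSep rats and 4.94 to 5.09 in control rats, apart but dim (difference 0.23, SE 0.06). Osr1, which acts early in kidney mesenchyme, differed by 0.92 (SE 0.34), and Eya1, a marker of cap mesenchyme, by -0.35 (SE 0.14). The difference of Eya1 was 0.01 in the run 14 to 17 and -0.59 in the run 19 to 24. Of 23 cell cycle genes, 0 were higher and 0 lower at an unadjusted p under 0.05, with 19 differences below 0 (median -0.08).

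Genes that respond to stress hormones were examined because separation was under way at P10. Of 18 glucocorticoid response genes, 5 were higher and 0 lower at an unadjusted p under 0.05 (median 0.14), with 2 to 6 higher when single rats were left out. In adults at P180, 4 of the 18 were higher and 0 lower (median 0.08), against 2.65% of all transcripts higher there. The effect at P10 minus that at P180 had a median of -0.05 in this list, so its higher values were not particular to P10. Sult1a1, a sulfotransferase, was at 7.13, 7.72, 7.92, 7.88 and 7.73 in MatSep rats, against 6.67, 7.24, 7.45, 6.99 and 6.91 in control rats. MatSep rat 1 lay below control rats 2 and 3 and the 4 other MatSep rats above all controls (log2 difference 0.62, SE 0.15, limma, adjusted p = 0.155). Lcn2, lipocalin 2, differed by 0.42 (SE 0.14) and Nfkbia, the inhibitor of NF-kappa-B, by 0.25 (SE 0.10). Nr3c1, the glucocorticoid receptor, was at 10.03 to 10.25 in MatSep rats and 10.01 to 10.26 in control rats. Of 17 immediate early genes, 1 was higher and 2 lower (median -0.02). Of 17 circadian clock genes 1 was higher and 0 lower, so that list lay near the background. Over all transcripts 5.10% were higher and 4.57% lower at this p, and 0.724% were higher without overlap. The clock gene that was higher, Clock, differed by 0.17 (SE 0.08, limma, adjusted p = 0.489), with a gap of 0.02 between the groups.

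Markers of other tissues near the kidney were examined for what the sieve could have kept. Of 12 nerve and Schwann cell markers, 2 were higher and 0 lower (median 0.00), Pmp22, a myelin gene also made by fibroblasts, at 0.75 (SE 0.18) and S100b, which fat cells also make, at 0.66 (SE 0.23). Of 10 skeletal muscle markers 1 was higher, and of 10 adrenal cortex and 8 mesothelial markers 0 were, with 0 lower in all 3 lists. With a block for the runs these counts were 0 of the muscle markers and 1 of the adrenal markers higher, and with single rats left out 0 to 3 muscle markers were lower and 0 to 2 adrenal markers higher. The adrenal ACTH receptor Mc2r was at 4.30 to 4.47 in MatSep rats and 4.46 to 4.64 in control rats, at the dim end of the array. Of 9 erythroid markers, 1 was higher and 1 lower (median -0.09; 3 and 2 with a block for the runs), and of 8 podocyte markers 1 was higher and 0 lower (median 0.16; 4 higher without MatSep rat 2, 2 without control rat 1 or 4 and 0 without control rat 5), namely Tcf21, which fibroblasts also carry, at 0.43 (SE 0.18). Of 22 oxidative phosphorylation subunits, 0 were higher and 0 lower at an unadjusted p under 0.05, with 20 differences above 0 (median 0.08). With a block for the runs 3 were higher, and with single rats left out 4 without control rat 2, 3 without control rat 1 or MatSep rat 5 and 1 without MatSep rat 3, with 1 lower without control rat 3.

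The same genes were set against the effect of MatSep at P180, in 5 MatSep and 5 control adults. There, 6 transcripts (0.0324%) passed the adjusted test, 491 (2.65%) were higher and 575 (3.11%) lower at an unadjusted p under 0.05. The effect of MatSep differed with age for 0 of 18511 transcripts at an adjusted p under 0.05 (limma; 24 with a block for the runs), with 1674 (9.04%) at an unadjusted p under 0.05. The median of the white adipocyte list was -0.08 at P180 with 0 of 23 past an unadjusted p under 0.05 in either direction, that of fibroblast markers -0.19 with 0 higher and 4 lower, and that of macrophage markers -0.07 with 1 higher and 4 lower. The effect at P10 minus that at P180 was above 0 at an unadjusted p under 0.05 for 14 of 19 fibroblast markers, 13 of 23 white adipocyte genes and 16 of 28 macrophage markers, against 4.96% of all transcripts above 0 and 4.08% below. This difference uses the same P10 arrays as the values above.

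**Figure D5:**
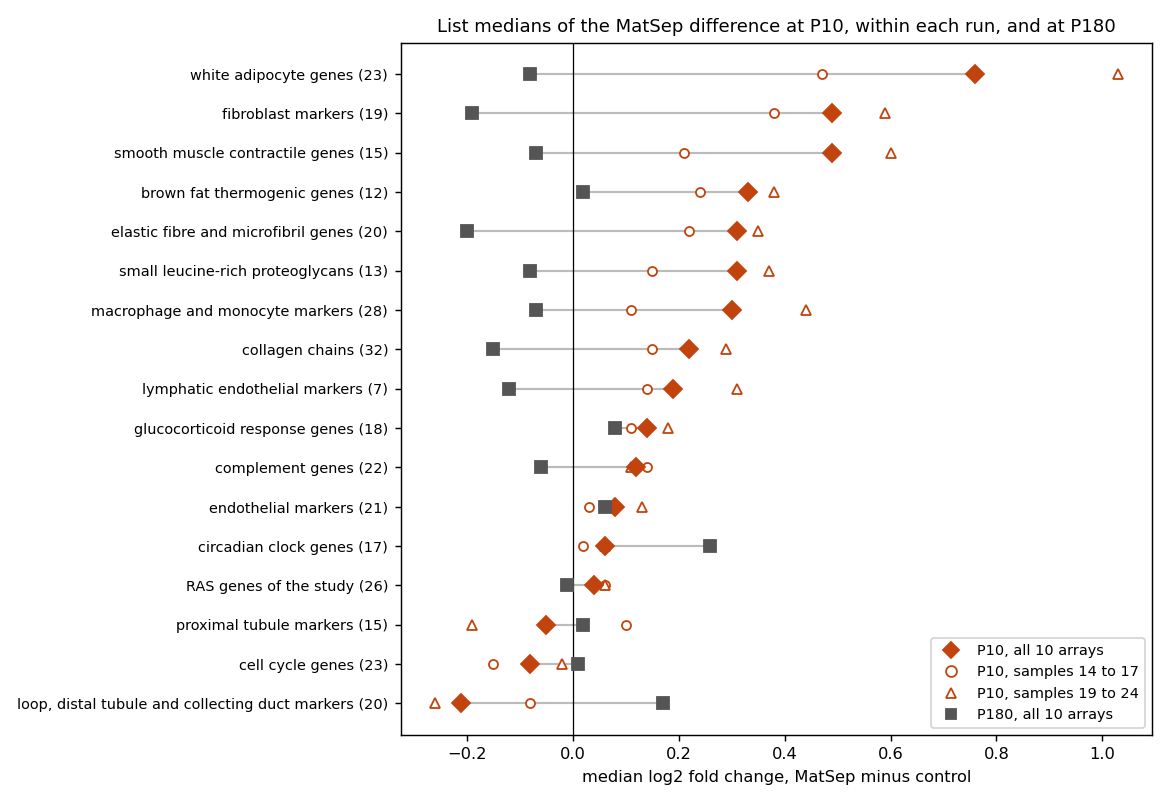
Median log2 difference, MatSep minus control (x axis), of 17 gene lists (y axis) at P10 (diamonds), in the run 14 to 17 (circles) and the run 19 to 24 (triangles), and at P180 (squares). White adipocyte genes were at 0.76 at P10, 0.47 and 1.03 in its runs and -0.08 at P180, and proximal tubule markers at 0.10 and -0.19 in the runs.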

How the data were processed

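Isolated renal vasculature of 10 P10 and 10 P180 rats was measured on 1 array per rat. The authors deposited a linear signal intensity per transcript, normalized between the arrays, with RMA and Partek named in the submitters' processing notes. Their versions are not given in the sources used here. The authors' tables of comparisons (group means, fold changes and p-values) were not used. After log2 transformation, values were fitted with limma 3.58.1 in R 4.3.3. Plots were made with matplotlib 3.10.9. Of 36685 transcripts, 18511 with 1 gene symbol in the platform annotation were tested, 575 with several and 17599 with none listed were not. limma fitted 1 mean for each of 4 groups to 20 arrays (16 residual degrees of freedom). The threshold was a p of 0.05 after Benjamini-Hochberg adjustment over all transcripts tested. The fit was tested on simulated data with known changes. Promoter sequences came from RefSeq.

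The comparison, the gene lists and the tests were chosen with earlier results of these data known. The text names transcripts that passed, the 20 with the smallest p among those higher and the 12 among those lower, the 3 members of each list with the smallest p, 8 renin-angiotensin genes and the genes the study measured by qPCR, or a selection of these. Alb and Ahsg were added after their values were seen. Where a gene had more than 1 transcript, the brightest was used. Counts of a list are those measured, and list genes without a transcript of 1 symbol were not analysed here. The number of arrays limits the precision.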

Additional observations from a re-analysis of the deposited data

Results flagged for a closer look

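In 10 of 270 groups of 5 arrays, 1 array lay far from the other 4 by Dixon's ratio, which chance gives in about 1 of 20 groups. MatSep rat 1 was the lowest of its group for Nrk (6.44, others 6.99 to 7.16), Scd (8.23, others 9.36 to 9.66), C1s (7.98, others 8.54 to 8.64) and Sult1a1 (7.13, others 7.72 to 7.92). It was also lowest for the mean log2 level of the inflammatory genes listed as higher (7.15, others 7.46 to 7.53) and of the macrophage and monocyte markers (6.76, others 7.02 to 7.08), and highest for Sphk1, a kinase of sphingosine (6.23, others 5.64 to 5.81). MatSep rat 2 was highest for Rspo1, an R-spondin (7.38, others 5.90 to 6.25), and for the mean of the secreted Wnt modulators (7.54, others 7.31 to 7.37). MatSep rat 3 was lowest for Ccdc68 (5.09, others 5.38 to 5.47).

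The effect of MatSep differed between the runs of sample numbers for Alb by -6.03 (run 19 to 24 minus run 14 to 17, limma, adjusted p = 0.000129) and for Ahsg by -3.03 (adjusted p = 0.00857). The pooled differences were 0.02 (SE 0.70) and 0.04 (SE 0.38).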

How the results depend on the processing

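Against 3 transcripts higher, 0 lower and 0 whose effect differed from P180, counts moved as follows. Higher transcripts numbered 0 with the P10 arrays alone, 1 within the run 14 to 17, 0 within the run 19 to 24, 7 with median centring, 1 without moderation of the variance and 0 over all 36685 transcripts. Array weights gave 303 higher, 182 lower and 128 differing from P180. With a replicate block, 39 were higher, Mfap5 and Col6a6 among them (limma, adjusted p = 0.00135 each), 7 lower and 52 differed from P180. Replicate numbers gave correlations of deviations of 0.61, 0.49, 0.60, 0.09 and 0.24, and 8 of 10 arrays correlated best with their own number, but the labels state no pairing. A block for the runs gave 24 that differed from P180, and a random block 10. An unadjusted p under 0.05 gave 944 higher, 846 lower and 1674 differing, and with a 1.2-fold change 546, 393 and 1412. Leaving out single rats gave 0 to 112 higher, 0 to 41 lower and 0 to 52 differing, with the highest counts without control rat 2 and 37 higher and 7 lower without MatSep rat 1. Chosen after seeing the data, a run block gave 0 higher with the P10 arrays alone, 455 higher, 313 lower and 213 differing with array weights, and 7 higher and 34 differing with median centring. The cause of these moves was not tested. Some settings also use fewer arrays or more transcripts.

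For 94 named genes, 2366 of 2630 values under other fits kept direction and call, 225 passed newly, 36 no longer passed and 3 turned sign, Mas1 without control replicate 1 (-0.0045), Slc3a1 within the run 14 to 17 (0.08) and Eya1 there (0.01). As only 3 transcripts passed at first, a kept call mostly meant that a gene passed in neither fit. Several settings change only the variance and leave the log2 difference as it was. Of 902 list medians, 897 moved by less than the spread between rats, a loose limit for lists with a wide spread (0.72 for white adipocyte genes).

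With 5 rats a group, the litter of each rat unknown and the runs unexplained, small differences cannot be separated from the spread. Dim transcripts add uncertainty, since 3815 of those tested had a mean log2 intensity under 5 at P10, and for these an array says little about absence.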
